A study of Mus musculus with 6 samples.

Results

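A set of 39 neutrophil and erythroid genes was described in cells enriched from mouse brain with magnetic beads against CD11b, a surface protein of microglia and other myeloid cells. The set held 28 neutrophil genes and 11 erythroid genes, chosen by symbol and grouped by the granule, the cell compartment or the pathway of their products. Of the 39 genes, 37 were among the 19225 genes with values. The serine protease genes *Elane* and *Ctsg* of the primary granule were not listed and were not analysed here.

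Libraries of 3′ mRNA ends were made from 3 *Cnr1*-/- mice (strain Cnr1 tm1Zim in the labels) and 3 *Cnr1*+/+ mice (strain C57BL6/J in the labels), 1 library per mouse. According to the methods the knockout line had the same C57BL/6J background. All were males that had not been stressed, with an age of 3 months in the labels, and the methods describe younger mice. The knockout is constitutive, made by a neomycin cassette in the coding region of *Cnr1*, the gene of the cannabinoid receptor CB1, and the controls were wild type littermates. Mice were perfused with PBS, the cerebellum was removed, myelin was removed on Percoll and CD11b+ cells were taken up with MicroBeads, with no further sort.

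Neutrophils are short-lived blood leucocytes that carry CD11b and are filled with granules formed one after another as the cell matures in bone marrow. Primary granules hold myeloperoxidase and serine proteases, secondary granules lactoferrin and cathelicidin, and tertiary granules gelatinase. The neutrophil cytosol is rich in the calcium-binding proteins S100A8 and S100A9, which form calprotectin. Young red blood cells still carry globin mRNA and the mRNA of the enzymes and carriers that make haem. Erythroid cells do not carry CD11b.

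The values are CPM (written cpm, reads scaled to the size of each library) with TMM scaling between libraries, made by the authors, and 1 read was worth between 0.0933 and 0.130 cpm, which corresponds to effective library sizes, after TMM scaling, of 7708793 to 10723861 reads. A value of 0 allows up to 3 reads, or 0.280 to 0.389 cpm, for counting error only. *Cnr1* itself was at 0 cpm in all libraries labelled *Cnr1*+/+ and at 1.41, 1.21 and 1.79 cpm in those labelled *Cnr1*-/- (replicates 1 to 3), so directions are given by the labels. Microglial mRNA was abundant in every library: 14 microglial genes, such as *Cx3cr1* and *P2ry12*, summed to between 18058 and 20972 cpm. In bulk RNA, fewer cells of a type and less RNA per cell cannot be told apart.

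The neutrophil genes summed to 575 cpm in replicate 1, 329 cpm in replicate 2 and 348 cpm in replicate 3 of the libraries labelled *Cnr1*+/+. In those labelled *Cnr1*-/- they summed to 611, 4416 and 338 cpm. A single library therefore stood apart, and it was *Cnr1*-/- replicate 2, with 12.7 times the median of the other 5 libraries and 7.23 times the highest of them. The erythroid genes gave 352, 253 and 266 cpm in the *Cnr1*+/+ libraries and 293, 2486 and 279 cpm in the *Cnr1*-/- libraries. Here *Cnr1*-/- replicate 2 lay at 8.90 times the median of the other 5. The 4 globins made up most of this sum: without its 2 most abundant genes the ratio was 4.97, and the 7 erythroid genes that are not globins summed to 166 cpm in that library and to between 112 and 132 cpm in the others. All 37 genes together made up 0.690% of its scaled total and between 0.0582% and 0.0927% of that of the others. *Cnr1*-/- replicate 3 lay within the range of the *Cnr1*+/+ libraries for both sums, and *Cnr1*-/- replicate 1 lay within it for the erythroid sum and slightly above it for the neutrophil sum.

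**Figure D1:**
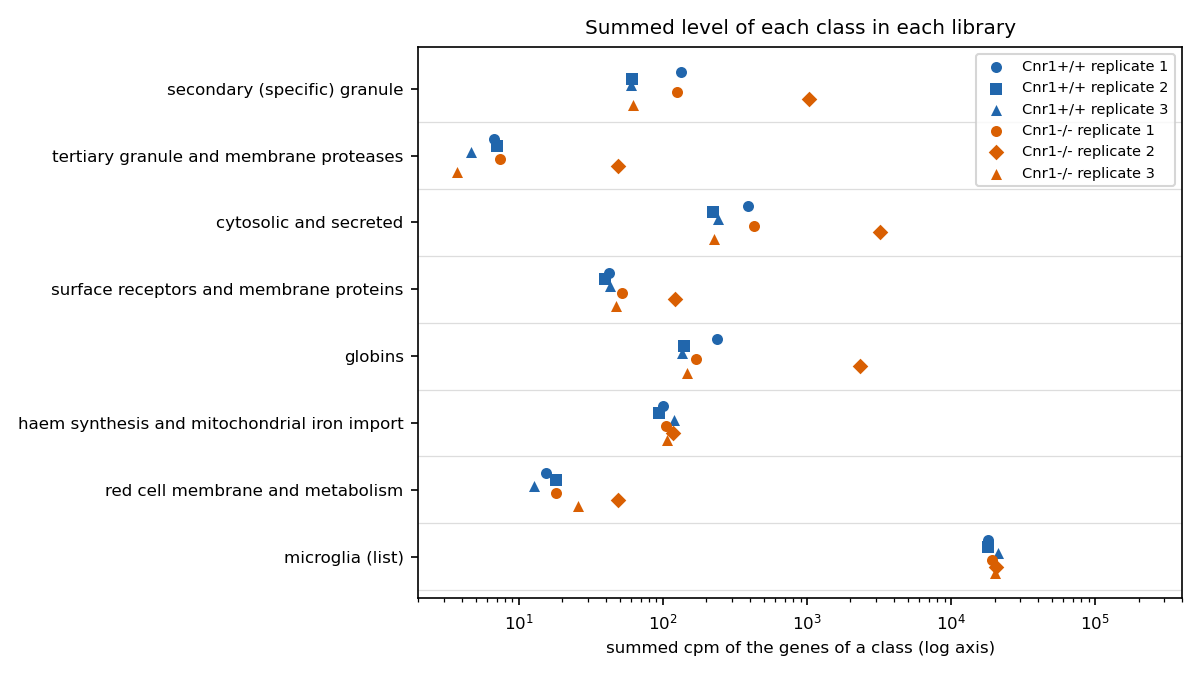
Summed cpm (log axis) of the listed genes of each class, 1 point per library, with *Cnr1*+/+ in blue and *Cnr1*-/- in orange, and the microglial list for comparison (the primary granule genes, at 0 in several libraries, are not drawn). The orange diamond, *Cnr1*-/- replicate 2, lies to the right of the other points for the granule, cytosolic and globin classes and among them for the haem and microglial classes.

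The level of *Cnr1*-/- replicate 2 was compared with the other 5 libraries for genes that averaged 1 cpm or more in those 5, a filter that does not use the library itself. It was the highest of the 6 libraries for 24 of the 27 members that passed, against 24.8% of the 13559 genes. For 22 of these 27 it lay at least 2-fold above the highest of the other 5, against 0.45% of the genes. Without any filter it was highest for 32 of the 37 listed members, against 23.2% of all 19225 genes, the exceptions being *Mpo*, *Padi4*, *Csf3r*, *Slc25a37* and *Tmod1*. The library was singled out by the sum of these same genes, so the counts describe it and are not a test. In the values of single genes that follow, the libraries are always given in the order of replicates 1, 2 and 3, first *Cnr1*+/+ and then *Cnr1*-/-.

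Promoter sequences of 5 members are shown because these genes had their highest value in the same library while they belong to different classes and lineages. They are the 250 bases before the RefSeq transcription start (GRCm38.p6), with matches to the searched motifs in capitals on either strand. *S100a9* is at chr3:90695722-90695971 on the minus strand, *Ltf* at chr9:111019042-111019291 on the plus strand, *Hbb-bs* at chr7:103827929-103828178 on the minus strand, *Hba-a2* at chr11:32296242-32296491 on the plus strand and *Alas2* at chrX:150547167-150547416 on the plus strand. Each is printed 5′ to 3′ on the strand of its gene.
S100a9: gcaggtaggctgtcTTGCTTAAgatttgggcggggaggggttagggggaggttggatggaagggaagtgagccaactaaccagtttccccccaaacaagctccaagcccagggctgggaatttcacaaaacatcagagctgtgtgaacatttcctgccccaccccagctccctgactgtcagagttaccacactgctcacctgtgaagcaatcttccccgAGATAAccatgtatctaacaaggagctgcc
Ltf: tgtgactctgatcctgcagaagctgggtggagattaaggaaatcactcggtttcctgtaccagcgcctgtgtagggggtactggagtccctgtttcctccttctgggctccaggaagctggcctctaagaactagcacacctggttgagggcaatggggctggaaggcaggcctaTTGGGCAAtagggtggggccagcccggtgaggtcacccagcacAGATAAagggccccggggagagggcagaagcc
Hbb-bs: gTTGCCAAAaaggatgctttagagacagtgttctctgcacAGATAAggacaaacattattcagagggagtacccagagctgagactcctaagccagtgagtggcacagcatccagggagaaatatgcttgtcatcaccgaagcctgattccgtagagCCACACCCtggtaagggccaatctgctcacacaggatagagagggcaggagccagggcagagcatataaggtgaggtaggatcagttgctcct
Hba-a2: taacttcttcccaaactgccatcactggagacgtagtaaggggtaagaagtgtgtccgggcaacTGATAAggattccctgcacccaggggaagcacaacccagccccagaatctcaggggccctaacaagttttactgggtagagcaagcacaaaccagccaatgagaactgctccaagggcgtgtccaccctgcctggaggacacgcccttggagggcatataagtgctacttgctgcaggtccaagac
Alas2: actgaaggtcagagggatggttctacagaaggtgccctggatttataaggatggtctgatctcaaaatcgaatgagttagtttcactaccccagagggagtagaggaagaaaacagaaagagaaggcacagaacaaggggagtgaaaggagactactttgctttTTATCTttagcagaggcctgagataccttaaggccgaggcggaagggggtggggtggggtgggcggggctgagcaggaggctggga

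The motif of C/EBP factors, which act in granule formation, was searched as TTGCNNAA, that of GATA factors, which act in red cell formation, as AGATAA, and that of KLF factors, which bind globin promoters, as CCACACCC, on both strands. A match to the C/EBP letters stood in 10.8% of the 32851 windows of 300 bases around RefSeq starts, in 10 of the 24 neutrophil members with a window and in 1 of the 7 erythroid members. In the sequences above it lay 236 bases before the start of *S100a9*, 75 before that of *Ltf* and 249 before that of *Hbb-bs*. The GATA letters were in 11.2% of windows, in 4 of the 24 neutrophil and 2 of the 7 erythroid members, among them *S100a9* at 30 bases, *Ltf* at 32, *Alas2* at 86 and *Hbb-bs* at 210. The KLF letters were in 3.56% of windows, in 2 neutrophil members and in 1 erythroid member, *Hbb-bs*, at 93 bases. The variant TGATAA, added after the sequences had been seen, was in 9.05% of windows and in 3 neutrophil and 2 erythroid members, including *Hba-a2* at 186 bases. The windows of *Hba-a1* and *Hba-a2* share an unbroken run of 297 bases, so their matches are not separate observations. A match is a run of letters and not a measured binding site.

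Primary granule genes were at or near 0. *Mpo*, the gene of myeloperoxidase, had 1.43 cpm (11 reads) in *Cnr1*+/+ replicate 1, 0.560 cpm (6 reads) in *Cnr1*-/- replicate 2 and 0 in the other 4 libraries. *Prtn3*, the gene of proteinase 3, had 1.87 cpm in *Cnr1*-/- replicate 2, 0.358 cpm in *Cnr1*-/- replicate 3 and 0 elsewhere. The class thus did not follow the other granule genes in size. In *Cnr1*-/- replicate 2 it summed to 2.42 cpm, against 1028 cpm for the secondary granule genes.

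Secondary granule genes summed in *Cnr1*-/- replicate 2 to 16.6 times the median of the other 5 libraries. They summed to 134, 60.9 and 60.1 cpm in *Cnr1*+/+ replicates 1, 2 and 3, and to 126, 1028 and 62.0 cpm in *Cnr1*-/- replicates 1, 2 and 3. All 8 were highest in *Cnr1*-/- replicate 2, each at least 2-fold above the other 5 libraries, and the next highest library was *Cnr1*+/+ replicate 1 for 4 of them and *Cnr1*-/- replicate 1 for the other 4.

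*Ngp*, which encodes neutrophilic granule protein and was the most abundant of them, had 58.2, 23.4 and 21.8 cpm in the *Cnr1*+/+ libraries and 46.0, 388 and 16.8 cpm in the *Cnr1*-/- libraries. *Camp*, the gene of the antimicrobial peptide cathelicidin, had 32.9, 12.8 and 12.4 cpm and then 27.1, 251 and 12.8 cpm in the same order. In both genes *Cnr1*-/- replicates 1 and 3 lay within or below the *Cnr1*+/+ range, so the groups overlapped. *Lcn2*, which encodes the iron-siderophore binding protein lipocalin 2, had 14.3, 9.68 and 7.15 cpm in the *Cnr1*+/+ libraries and 14.1, 123 and 7.87 cpm in the *Cnr1*-/- libraries. *Ltf*, the gene of the iron-binding lactoferrin, had 8.69, 4.89 and 7.68 cpm in the *Cnr1*+/+ libraries and 15.5, 112 and 9.90 cpm in the *Cnr1*-/- libraries. It was the only tested member whose groups did not overlap, although *Cnr1*-/- replicate 3 exceeded the highest *Cnr1*+/+ library by little.

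Collagenase and lectin genes of the same class gave lower levels with the same shape. *Mmp8*, neutrophil collagenase, had 6.10, 2.00 and 5.36 cpm in the *Cnr1*+/+ libraries and 8.88, 68.0 and 5.25 cpm in the *Cnr1*-/- libraries. *Chil3*, a chitinase-like protein, had 7.91, 5.49 and 2.63 cpm and 9.64, 68.4 and 5.72 cpm. In both, *Cnr1*-/- replicate 1 was next after *Cnr1*-/- replicate 2. *Pglyrp1*, which encodes a peptidoglycan recognition protein, differed less, with 5.32, 2.59 and 3.05 cpm in the *Cnr1*+/+ libraries and 4.03, 13.6 and 3.70 cpm in the *Cnr1*-/- libraries. *Fcnb*, the gene of ficolin B, stayed at or under 0.650 cpm except for 3.64 cpm in *Cnr1*-/- replicate 2.

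The tertiary granule protease *Mmp9*, gelatinase B, had 6.49, 6.78 and 3.16 cpm in the *Cnr1*+/+ libraries and 6.50, 42.2 and 2.39 cpm in the *Cnr1*-/- libraries. Its value in *Cnr1*-/- replicate 3 was the lowest of the 6. *Mmp25*, a membrane-bound matrix metalloproteinase, had 0.259 to 1.47 cpm in the other 5 libraries and 6.43 cpm in *Cnr1*-/- replicate 2.

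Cytosolic and secreted products were the most abundant class of neutrophil mRNA in every library. *S100a8* (90668978 to 90670035) and *S100a9* (90692632 to 90695721) lie near each other on chromosome 3 (mm10) on opposite strands. *S100a8* had 172, 87.3 and 92.4 cpm in the *Cnr1*+/+ libraries and 189, 1398 and 104 cpm in the *Cnr1*-/- libraries. *S100a9* had 192, 121 and 130 cpm in the *Cnr1*+/+ libraries and 210, 1630 and 104 cpm in the *Cnr1*-/- libraries. The products of both genes pair in calprotectin, and their ratio stayed between 0.993 and 1.40 in the other 5 libraries and was 1.17 in *Cnr1*-/- replicate 2.

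*Retnlg*, which encodes a resistin-like protein, had 9.99, 5.49 and 10.8 cpm in the *Cnr1*+/+ libraries and 12.6, 86.5 and 5.37 cpm in the *Cnr1*-/- libraries. *Wfdc21*, of the whey acidic protein family, had 8.95, 2.99 and 2.21 cpm in the *Cnr1*+/+ libraries and 6.39, 59.0 and 6.92 cpm in the *Cnr1*-/- libraries. Both again had overlapping groups. *Anxa1*, the gene of annexin A1, had 5.97, 2.99 and 3.05 cpm and then 5.63, 26.0 and 2.27 cpm. *Slpi*, an inhibitor of leucocyte proteases, had 0.519, 0.499 and 1.37 cpm in the *Cnr1*+/+ libraries and 1.52, 15.7 and 1.79 cpm in the *Cnr1*-/- libraries. The *Slpi* groups did not overlap, with 14 reads in *Cnr1*-/- replicate 1 and 13 in *Cnr1*+/+ replicate 3 as the nearest libraries. *Padi4*, the gene of a histone-citrullinating enzyme, did not share the pattern: its values lay between 0.108 and 1.60 cpm, the highest in *Cnr1*+/+ replicate 2, with 0.746 cpm in *Cnr1*-/- replicate 2.

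Surface receptor genes divided into those at low level outside *Cnr1*-/- replicate 2 and *Csf3r*. *Csf3r*, the receptor of granulocyte colony-stimulating factor, had 28.1, 33.9 and 36.5 cpm in the *Cnr1*+/+ libraries and 41.1, 35.4 and 40.7 cpm in the *Cnr1*-/- libraries. Its value in *Cnr1*-/- replicate 2 was thus the third lowest of all, and 23.9% of the 50-base windows in its last 300 bases also occur in transcripts of other genes, 189 in number. *Ly6g*, the antigen by which mouse neutrophils are commonly recognised, had 1.17, 0.299 and 0 cpm in the *Cnr1*+/+ libraries and 0.866, 10.4 and 0.716 cpm in the *Cnr1*-/- libraries. *Cd177*, a neutrophil surface glycoprotein, had 0 reads in all 3 *Cnr1*+/+ libraries and 0.750, 12.1 and 0.520 cpm in the *Cnr1*-/- libraries. The *Cd177* values did not overlap, yet outside *Cnr1*-/- replicate 2 they came from under 10 reads, and 61.0% of the 50-base windows in its last 300 bases also occur in other genes.

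*Ifitm6*, an interferon-induced transmembrane protein, had 5.45, 2.99 and 2.73 cpm in the *Cnr1*+/+ libraries and 4.55, 39.1 and 2.74 cpm in the *Cnr1*-/- libraries. *Ly6c2*, an antigen of monocytes as well as neutrophils, had 3.44, 1.58 and 2.00 cpm and 1.73, 11.2 and 0.716 cpm, and 29.9% of its windows are shared with *Ly6c1*. In both, *Cnr1*-/- replicates 1 and 3 lay within or below the *Cnr1*+/+ range. The chemokine receptor *Cxcr2* reached 8.30 cpm in *Cnr1*-/- replicate 2 against 0.898 to 2.59 cpm in the other 5 libraries. *Il1r2*, a decoy receptor of interleukin 1, reached 4.57 cpm there against 0 to 1.56 cpm. Of the 7 genes of this class, the 6 other than *Csf3r* were highest in *Cnr1*-/- replicate 2.

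**Figure D2:**
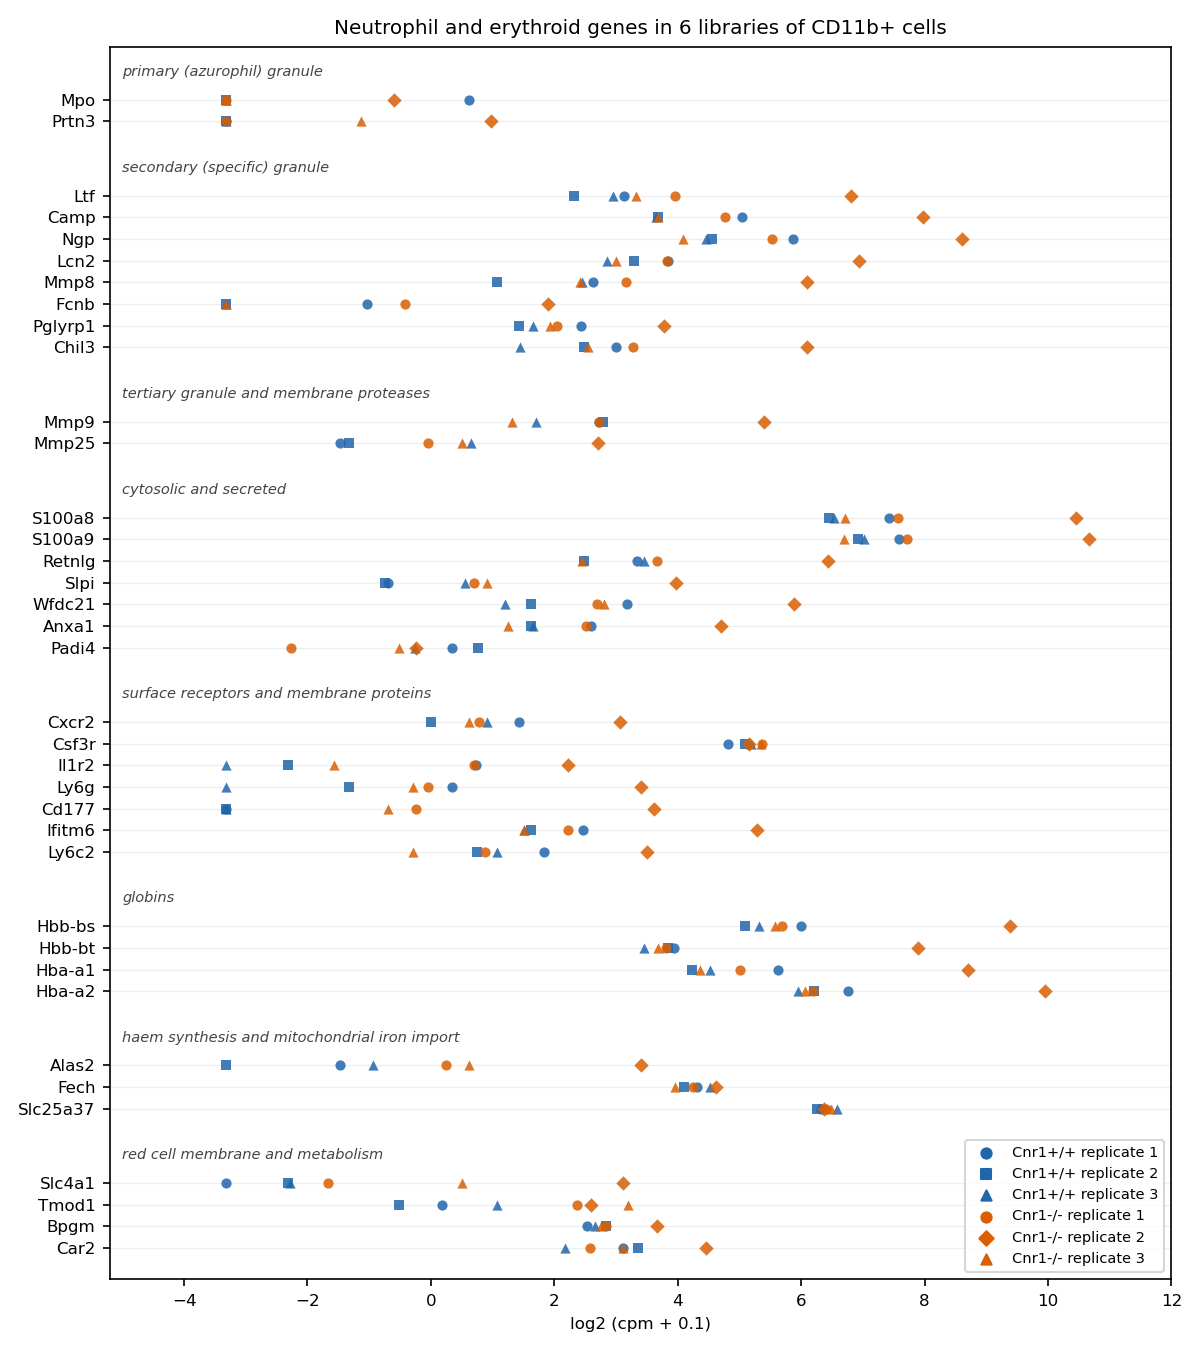
Level of the 37 listed members as log2 (cpm + 0.1), 1 point per library, grouped by class, with *Cnr1*+/+ in blue and *Cnr1*-/- in orange and the marker shape giving the replicate. The diamond of *Cnr1*-/- replicate 2 lies apart on the right for most genes. It lies among or next to the other points for *Mpo*, *Padi4*, *Csf3r*, *Fech*, *Slc25a37* and *Tmod1*.

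The globins followed the same library. Both alpha globin genes lie on chromosome 11 (mm10), *Hba-a1* from 32283511 to 32284465 and *Hba-a2* from 32296489 to 32297298, and the beta globin genes on chromosome 7. The 4 globins summed to 237, 141 and 135 cpm in *Cnr1*+/+ replicates 1, 2 and 3 and to 170, 2319 and 147 cpm in *Cnr1*-/- replicates 1, 2 and 3, so that *Cnr1*-/- replicate 2 held 15.7 times the median of the others. The alpha globin *Hba-a2* had 108, 73.9 and 61.8 cpm in the *Cnr1*+/+ libraries and 72.8, 996 and 66.6 cpm in the *Cnr1*-/- libraries. Its neighbour *Hba-a1* had 49.5, 18.6 and 22.8 cpm in the *Cnr1*+/+ libraries and 32.2, 415 and 20.6 cpm in the *Cnr1*-/- libraries. *Cnr1*+/+ replicate 1 came next after *Cnr1*-/- replicate 2 for these and for both beta globins. *Hbb-bs* had 64.1, 34.1 and 39.8 cpm in the *Cnr1*+/+ libraries and 51.5, 669 and 47.5 cpm in the *Cnr1*-/- libraries. *Hbb-bt* had 15.3, 14.3 and 10.8 cpm in the *Cnr1*+/+ libraries and 13.9, 238 and 12.7 cpm in the *Cnr1*-/- libraries.

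The globin pairs are near-identical copies, and the division of reads between them is uncertain. In the last 300 bases of the transcript, 80.1% of the 50-base windows of *Hba-a1* and 73.7% of those of *Hba-a2* occur in the other gene, as do 36.7% of those of *Hbb-bs* and 36.3% of those of *Hbb-bt*. The sum of the alpha over the sum of the beta globins does not depend on that division. It lay between 1.45 and 1.98 in the other 5 libraries and was 1.56 in *Cnr1*-/- replicate 2.

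Of the 3 haem genes, 1 lay at least 2-fold above the other libraries in *Cnr1*-/- replicate 2. *Alas2*, the erythroid form of the first enzyme of haem synthesis, had 0.259, 0 and 0.421 cpm in the *Cnr1*+/+ libraries and 1.08, 10.5 and 1.43 cpm in the *Cnr1*-/- libraries, without overlap, and at 10 to 12 reads in *Cnr1*-/- replicates 1 and 3. *Fech*, ferrochelatase, which inserts iron in the last step, had 19.8, 17.1 and 22.8 cpm and 18.8, 24.6 and 15.5 cpm. *Slc25a37*, mitoferrin 1, which carries iron into mitochondria, had 79.8, 76.8 and 95.2 cpm and 84.1, 82.3 and 89.2 cpm. *Fech* had its lowest and its highest value in *Cnr1*-/- libraries, and *Slc25a37* had both in *Cnr1*+/+ libraries.

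Among the red cell membrane and metabolism genes, *Slc4a1*, the anion exchanger band 3, had 0, 0.0998 and 0.105 cpm in the *Cnr1*+/+ libraries and 0.217, 8.58 and 1.31 cpm in the *Cnr1*-/- libraries. The groups did not overlap, with 0 or 1 read in each *Cnr1*+/+ library and 2 reads in *Cnr1*-/- replicate 1. *Car2*, carbonic anhydrase 2, had 8.56, 10.2 and 4.42 cpm in the *Cnr1*+/+ libraries and 5.85, 21.8 and 8.59 cpm in the *Cnr1*-/- libraries. *Bpgm*, bisphosphoglycerate mutase, which makes the allosteric regulator of haemoglobin, had 5.71, 7.08 and 6.21 cpm and 7.04, 12.6 and 6.68 cpm. Their folds in *Cnr1*-/- replicate 2 over the median of the other 5, 2.55 and 1.89, were far under those of the globins.

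*Tmod1*, tropomodulin 1, which caps actin filaments in the red cell membrane skeleton and in other cells, differed in a way of its own. It had 1.04, 0.599 and 2.00 cpm in the *Cnr1*+/+ libraries and 5.09, 5.97 and 9.06 cpm in the *Cnr1*-/- libraries. All 3 *Cnr1*-/- libraries lay above all 3 *Cnr1*+/+ libraries, and the highest was not *Cnr1*-/- replicate 2 but replicate 3. The means were 1.21 ± 0.716 cpm and 6.71 ± 2.09 cpm (SD, n = 3 each; exact permutation test, two-sided, p = 0.1, the lowest p possible with 3 against 3). Its mean was under the 10 cpm required for the main test. In a limma fit over the 13588 genes that averaged 1 cpm or more, its log2 fold change was 2.48 ± 0.524 (SE) with an adjusted p of 0.126, and over all genes with a mean above 0 the adjusted p was 0.0639. In the former fit its log2 fold change stayed between 2.10 and 2.89 with each library left out (limma adjusted p between 0.0569 and 0.573), and was 2.54 without *Cnr1*-/- replicate 2. *Tmod1* lies on chromosome 4 (46038935 to 46116032, mm10), 12.1 Mb from *Cnr1* on the same chromosome. It overlaps *Tstd2* on the opposite strand, which had 9.34, 13.3 and 17.5 cpm and 17.9, 18.0 and 13.6 cpm, and the strand setting of the counting is not given in the sources used here. The part of *Tstd2* reads in the *Tmod1* values was not tested.

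**Figure D3:**
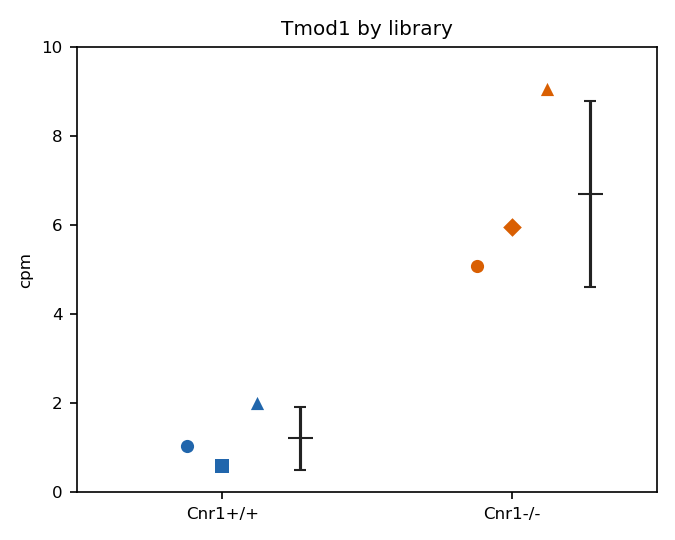
*Tmod1* in cpm, 1 point per library with marker shapes as in the plot of all members (circle, replicate 1; square or diamond, replicate 2; triangle, replicate 3) and the mean with its SD (n = 3) beside each group. The *Cnr1*-/- libraries lie between 5.09 and 9.06 cpm and the *Cnr1*+/+ libraries between 0.599 and 2.00 cpm.

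Levels of the neutrophil genes relative to each other were also compared within each library. As a percentage of the summed level of *S100a8* and *S100a9*, *Camp* was 8.29% in *Cnr1*-/- replicate 2 and between 5.59% and 9.04% in the others. *Ngp* was 12.8% against 8.09% to 16.0%, *Ltf* 3.71% against 2.35% to 4.76%, and *Lcn2* 4.07% against 3.22% to 4.65%. *Cnr1*-/- replicate 2 stayed inside the range of the others for each of these, as it did for *Mmp8*, *Mmp9*, *Retnlg*, *Chil3* and *Wfdc21*. Of all 24 listed neutrophil members other than *S100a8* and *S100a9*, 17 lay inside the range, some of them at a few reads, 5 below it and 2 above it. Below it were *Csf3r*, at 1.17% against 7.70% to 19.6%, *Pglyrp1*, at 0.450% against 1.01% to 1.78%, *Anxa1*, *Cxcr2* and *Padi4*. *Anxa1* was at 0.859% against 1.09% to 1.64% and *Cxcr2* at 0.274% against 0.407% to 0.805%, so the proportions were not the same for all neutrophil genes. Above it were *Cd177*, at 0.400% against at most 0.250%, and *Ly6g*, at 0.345% against 0% to 0.344%. The ratio of the globins to *S100a8* and *S100a9* was 0.766 in *Cnr1*-/- replicate 2 and between 0.427 and 0.710 in the others, where it was lowest in *Cnr1*-/- replicate 1. *Cnr1*-/- replicate 1 had thus nearly the neutrophil sum of *Cnr1*+/+ replicate 1 (611 and 575 cpm) with fewer globin reads (170 and 237 cpm).

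The comparison of the genotype labels was made with limma on log2 (cpm + 0.1) for the 6659 genes that averaged 10 cpm or more. Of the 37 listed members 18 passed this filter, 12 neutrophil and 6 erythroid genes, and 6 of the 18 passed only because of *Cnr1*-/- replicate 2. At a nominal p under 0.05, 13 of the 18 were higher in the libraries labelled *Cnr1*-/-, where 5.09% of all tested genes were, and none was lower. In 12 of these 13 the values of the groups overlapped. They were *Ltf*, *Camp*, *Lcn2*, *Mmp8*, *Chil3*, *S100a8*, *S100a9*, *Retnlg*, *Wfdc21* and the 4 globins, with log2 fold changes between 1.09 and 1.89. The other tested members were *Ngp* (log2 fold change 1.11), *Mmp9* (0.74), *Csf3r* (0.26), *Slc25a37* (0.03) and *Fech* (-0.03). The median log2 fold change was 1.25 over the tested members and 0.08 over all tested genes.

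After Benjamini-Hochberg adjustment over all tested genes, 0 of the 18 members passed both thresholds of the study (adjusted p under 0.1, fold change over 1.5), where 0.0901% of the genes did. Without *Cnr1*-/- replicate 3, 11 of the 20 members then tested passed, all higher, against 0.362% of the genes then tested. Members such as *Mmp8*, *Chil3*, *Wfdc21* and *Ifitm6* were then tested only because of *Cnr1*-/- replicate 2. They had at most 9.64 cpm in any other library, so that library partly sets this count. With no filter on low values, 2 of the 37 members passed, *Ltf* and *Tmod1*, against 0.0728% of the genes. With all 6 libraries and the filter, the lowest adjusted p of limma among the members was 0.359, for *Ltf*, whose log2 fold change was 1.89 ± 0.487 (SE, n = 3 per group). For *S100a8*, the log2 fold change was 1.44 ± 0.468 (SE), with an adjusted p of 0.610 from limma. *Hbb-bs* had a log2 fold change of 1.41 ± 0.513 (SE), with an adjusted p of 0.702 from limma. The groups did not overlap, with the *Cnr1*-/- libraries above, in 1 of the 18 tested members, against 8.85% of all tested genes. With the 19 untested members included, they did not overlap in 6 of 37: *Ltf*, *Slpi*, *Cd177*, *Alas2*, *Slc4a1* and *Tmod1* (two-sided exact permutation p = 0.1 for each). Over all 19225 genes the share was 6.58%. Of these members 5 averaged under 10 cpm, where the share was 5.38% of 12566 genes and a few reads can decide whether groups overlap. For *Tmod1* the nearest libraries of the groups were further apart, at 19 and 47 reads.

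Most of the nominal calls were lost without *Cnr1*-/- replicate 2. Without that library 12 members kept a mean of at least 10 cpm, and 0 of them had a nominal p under 0.05 with limma, against 3.81% of the 6583 genes then tested. The lowest nominal p among them was 0.0898, a value from limma. Of the 12, 7 were higher and 5 lower, with log2 fold changes from -0.21 to 0.33 and a median of 0.04, which is also the median over all genes then tested. The 12 included 8 of the 13 nominal calls, and the other 5, *Ltf*, *Mmp8*, *Chil3*, *Retnlg* and *Wfdc21*, then averaged under 10 cpm. When the minimum mean was lowered to 1 cpm, all 13 could be tested without that library, and 1, *Ltf*, kept a nominal p under 0.05, against 4.09% of the 13559 genes then tested. The log2 fold change of *Ltf* was then 0.84 ± 0.341 (SE), with limma's p at 0.0209 before and 0.999 after adjustment, and its groups still did not overlap. *Mmp8*, *Wfdc21* and *Chil3* were at 0.74, 0.75 and 0.60 on the log2 scale, above the range of the 12 given before, and *Retnlg* was at -0.033. The calls also depended on the model of the variance. With robust eBayes 0 of the 18 members passed a nominal p under 0.05, against 6.2% of the genes, and in a one-factor model without shrinkage 0 passed, against 5.21%. With each library centred on its median, 6 members were higher at a nominal p under 0.05 (*Chil3*, *Hbb-bs*, *Ltf*, *Mmp8*, *S100a8* and *Wfdc21*), against 2.96% of the genes, and under quantile normalisation 3 (*Ltf*, *Mmp8* and *S100a8*), against 2.45%. When the minimum mean over all 6 libraries was lowered to 1 cpm, 16 members had a nominal p under 0.05, against 3.97% of genes. All 16 were higher, and 0 members had an adjusted p under 0.1. Members such as *Ly6g* and *Cd177* passed this filter only through *Cnr1*-/- replicate 2, with means of 0.61 and 0.25 cpm in the other 5. The count is therefore partly set by that library.

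**Figure D4:**
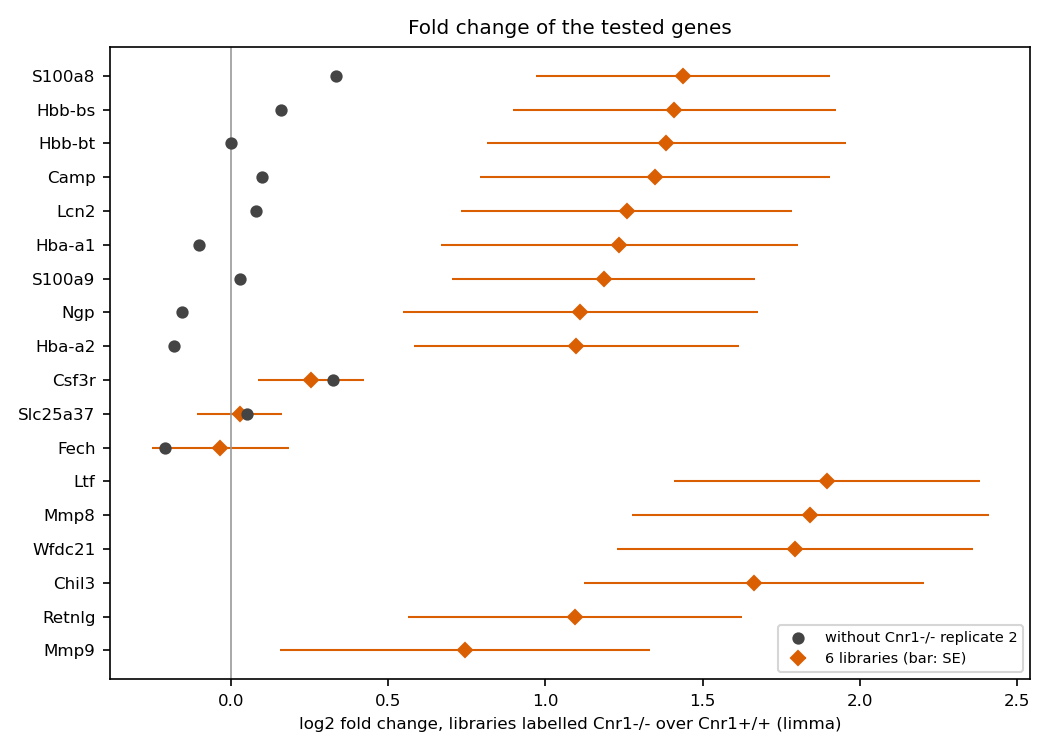
Log2 fold change of the 18 tested members between the libraries labelled *Cnr1*-/- and *Cnr1*+/+ with all 6 libraries (diamonds, bars give the SE) and without *Cnr1*-/- replicate 2 (dots; the lowest 6 genes then had a mean under 10 cpm and have no dot). The diamonds of the granule, S100 and globin genes lie between 0.74 and 1.89, and all dots lie between -0.21 and 0.33.

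Further genes of the same lineages were then read in *Cnr1*-/- replicate 2. Of 22 listed further neutrophil genes, 21 were highest in that library, against 23.2% of all genes. Many of them had few reads, and 8 averaged 1 cpm or more in the other 5 libraries, all 8 of them highest in *Cnr1*-/- replicate 2, against 24.8% of the genes with that level. *Lrg1*, *Hp*, *Fpr2* and *Cd24a* reached 10.1, 19.6, 13.3 and 22.0 cpm there, against at most 1.05, 4.09, 2.52 and 9.34 cpm in the other 5. The most abundant genes of the list, *Lyz2* and *Ceacam1*, rose less, with 317 and 40.6 cpm against at most 166 and 23.4 cpm. *Hp* encodes the haemoglobin-binding haptoglobin and *Fpr2* a formyl peptide receptor. Of 20 listed further erythroid genes, 14 were highest in *Cnr1*-/- replicate 2, and 9 of the 14 that averaged 1 cpm or more, but the more abundant ones by little: *Epb41*, *Ppox* and *Urod* had 36.6, 20.2 and 12.5 cpm there against at most 30.4, 18.8 and 11.8 cpm. Of these lists 2 neutrophil and 6 erythroid genes could be tested with limma, and 0 of these 8 reached a nominal p under 0.05, where 6.02% of all tested genes did, so that this count does not set them apart.

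Markers of other cells differed from list to list. Against the 23.2% of all genes, *Cnr1*-/- replicate 2 was the highest library for 2 of 9 monocyte, 2 of 4 platelet, 1 of 8 border-associated macrophage, 2 of 7 endothelial, 0 of 7 oligodendrocyte, 1 of 5 neuronal and 2 of 14 microglial genes. The monocyte genes summed to 57.8 cpm in that library and to between 44.4 and 63.7 cpm in the others, and *Ccr2*, which defines inflammatory monocytes, had 17.3 cpm there against 15.4 to 23.4 cpm. It was highest for 2 of 5 listed lymphocyte genes, of which *Igkc*, the kappa light chain constant region, had 27.6 cpm against 0.399 to 13.1 cpm, and for both listed genes of mast cells, basophils and eosinophils, each at least 2-fold above the other 5, which summed to 6.06 cpm against 0 to 1.62 cpm. *Ighg2b*, an immunoglobulin heavy chain gene named after its values were seen, was at 10.4 cpm there and at 0 in the other 5. Of 8 proliferation genes 5 were highest in it, such as *Mki67* with 12.1 cpm against 3.68 to 6.46 cpm, and the 8 summed to 81.9 cpm against 46.1 to 52.4 cpm. The part of these genes in the levels of the members was not tested.

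**Figure D5:**
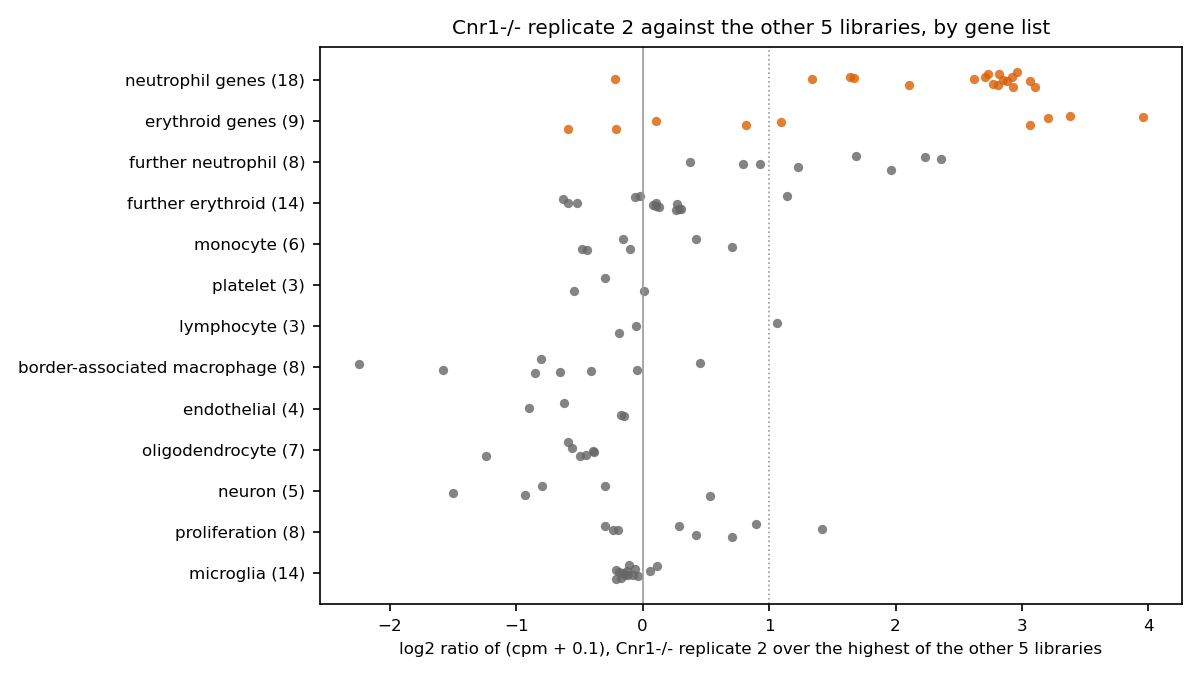
Log2 ratio of (cpm + 0.1) in *Cnr1*-/- replicate 2 over the highest of the other 5 libraries, 1 point per gene that averaged 1 cpm or more in those 5, by list, with the number of genes in brackets and a dotted line at a 2-fold difference. The 18 neutrophil members have a median of 2.79 and the 14 microglial genes one of -0.12.

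Among the remaining 5 libraries the levels of neutrophil genes still differed. The highest of these 5 was *Cnr1*+/+ replicate 1 for 12 and *Cnr1*-/- replicate 1 for 9 of the 26 listed neutrophil members. Those libraries lay at 575 and 611 cpm, whereas *Cnr1*+/+ replicates 2 and 3 and *Cnr1*-/- replicate 3 lay between 329 and 348 cpm. Each genotype label thus held libraries of both levels.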

How the data were processed

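3′ mRNA ends of CD11b+ cells from 6 mice were sequenced, 1 library per mouse (3 per genotype label). The authors trimmed the reads, aligned them to mm10 with STAR, quantified them per gene in Partek by expectation-maximisation and applied TMM scaling. The values used are CPM as deposited by the authors, and listed genes hold 50.1% to 59.1% of each scaled total. Of the values above 0, 83.4% to 85.5% were whole multiples of 1 read (tolerance 0.02 reads), and the rest were not. The values are scaled CPM and not counts, so no test for counts was used. No column of values was left unmapped.

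Labels were compared with limma 3.58.1 in R 4.3.3 (lmFit, eBayes with a trend, Benjamini-Hochberg over all tested genes) on log2 (CPM + 0.1), genes averaging 10 cpm or more, tested on simulated data first, and with two-sided exact permutation tests for single genes. The members and gene lists were chosen with earlier results of these data known. All listed members are named, those reaching 10 cpm library by library. Of further lists, genes with a nominal p under 0.05 and at most 4 genes a list that reach 10 cpm and are highest in *Cnr1*-/- replicate 2 were eligible to be named, and some of these are not reported here. Shared 50-base windows were taken from GENCODE vM21 transcripts. Promoter windows came from RefSeq (GRCm38.p6), 31 members had one that was used, and no protein sequence was used. Alternatives were other pseudocounts, filters, scalings and variance models, a block for the replicate number, and leaving out single libraries. Plots used matplotlib 3.10.9 (Python 3.11.15).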

Additional observations from a re-analysis of the deposited data

How the results depend on the processing

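The number of members with a nominal p under 0.05 in limma was 13. It was 22 of 37 with no filter on low values, 6 with each library centred on its median, 3 under quantile normalisation and 4 with eBayes without a trend. It was 0 with robust eBayes or without shrinkage of the variance, the latter an alternative chosen after seeing the data. Of the 6659 genes tested, 375 were called with centred libraries, 360 under quantile normalisation and 391 without a trend. With robust eBayes 413 were called, and without shrinkage 347. Leaving out single libraries gave between 0 and 16. It was 0 of 12 without *Cnr1*-/- replicate 2, 5 of 19 without *Cnr1*+/+ replicate 2 and 7 of 20 without *Cnr1*+/+ replicate 3. Over all genes the numbers were then 251 of 6583, 368 of 6663 and 600 of 6614. With a minimum mean of 1 cpm over all 6 libraries it was 16, against 742 of the 13588 genes then tested. Some members, such as *Ly6g*, passed that filter only through *Cnr1*-/- replicate 2. With each library left out it was between 2 and 24, an alternative chosen after seeing the data. It was 2 of 27 without *Cnr1*-/- replicate 2, against 4.09% of the genes then tested. It was 10 without *Cnr1*+/+ replicate 2 or 3. For these 10 and for the 24 the share over all genes is not given. The number with an adjusted p under 0.1 and a fold change over 1.5 was 0. It was 2 of 37 with no filter, *Ltf* and *Tmod1*, against 0.0728% of the genes then tested. With each library left out it was between 0 and 11, the 11 (of 20 then tested, against 0.362% of the genes) without *Cnr1*-/- replicate 3. Members such as *Mmp8* and *Chil3* were among these 20 only because of *Cnr1*-/- replicate 2. Over all genes, 401 had a nominal p under 0.05. There were 993 with no filter, 742 when genes had to average 1 cpm and 263 when they had to average 20 cpm, where the number of genes tested differs, and between 251 and 600 with each library left out, 251 without *Cnr1*-/- replicate 2. Apart from the filters, the causes were not tested.

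The log2 ratio of *Cnr1*-/- replicate 2 to the other 5 libraries was 3.67 for the neutrophil sum and 3.15 for the erythroid sum. Against the highest of the other 5 it was 2.85 and 2.82. The erythroid ratio was 2.31 without its 2 most abundant genes, and 3.77 as the median over its genes. Centring the libraries or setting equal totals without mitochondrial genes moved neither ratio by more than 1 SD of the other 5 libraries.

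Some single genes changed sign. *Fech* (log2 fold change -0.034) was at 0.010 with array weights and between -0.21 and 0.12 with single libraries left out. *Slc25a37* (0.028) was at -0.048 with centred libraries, at -0.062 under quantile normalisation and between -0.033 and 0.12 with single libraries left out. Over the same left-out libraries *Hba-a1* lay between -0.10 and 2.06, *Hba-a2* between -0.18 and 1.77, *Hbb-bt* between -0.00066 and 2.11 and *Ngp* between -0.15 and 2.11, the lowest in each case when *Cnr1*-/- replicate 2 and the highest when *Cnr1*-/- replicate 3 was left out. With a minimum mean of 1 cpm and without *Cnr1*-/- replicate 2, *Mmp9* was at -0.38 and *Retnlg* at -0.033. Apart from these, the other tested members kept their direction under the alternatives in which they were tested.

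Deviations of libraries with the same replicate number had correlations of -0.056, -0.032 and -0.031 across genes. Those of libraries with unlike numbers lay between -0.0036 and 0.040. Both kinds were near 0, so this check cannot decide whether the numbers pair the mice. With the replicate number as a block, 14 members had a nominal p under 0.05, 0 passed the adjusted threshold, and 421 of all genes had a nominal p under 0.05. The depth limits the members with a few reads, such as *Mpo*, *Cd177* and *Slc4a1*.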

Other observations

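A further count used the mean over all 6 libraries, which includes *Cnr1*-/- replicate 2. *Ly6g*, *Cd177* and *Alas2* passed it only through that library, with means of 0.61, 0.25 and 0.64 cpm in the other 5. Across all genes that averaged 1 cpm or more in this way, 41 reached 10 cpm in *Cnr1*-/- replicate 2 and lay at least 2-fold above the other 5 libraries. Of these, 24 were neutrophil or erythroid members described above and 5 stood in the further lists. Values of 3 of the others, chosen after their values were seen, are given here. *S100a6*, a calcium-binding protein of many cell types, had 24.1, 9.08 and 16.6 cpm in the *Cnr1*+/+ libraries and 12.9, 51.8 and 9.30 cpm in the *Cnr1*-/- libraries. *Hba-ps3*, an alpha globin pseudogene, had 11.03 cpm in *Cnr1*-/- replicate 2 and at most 0.599 cpm in the others, and it can share reads with the alpha globins. *C3*, complement component 3, had 10.2 cpm there and at most 3.79 cpm elsewhere.

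*Pf4* was the 1 of 4 tested genes of the border-associated macrophage list with a nominal p under 0.05 in limma. Of all tested genes 6.02% had one. *Pf4* was lower in the libraries labelled *Cnr1*-/- (log2 fold change of -0.48, limma adjusted p of 0.809). The other tested genes of the list, *Mrc1*, *Cd163* and *Lyve1*, had log2 fold changes of -0.24, 0.14 and 0.08. *Pf4* had 20.9, 16.3 and 23.1 cpm in the *Cnr1*+/+ libraries and 14.8, 12.8 and 15.3 cpm in the *Cnr1*-/- libraries, without overlap.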
